A study of Mus musculus with 32 samples.

Results

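Transcripts of 9 tight junction genes were followed across hippocampus (HPC), meninges and sorted meningeal lymphatic endothelial cells (mLECs) of wild-type (WT) mice and of 5xFAD mice with or without light treatment. The genes were chosen by symbol from a fixed list, namely Ocln, Tjp1, Cldn1, Cldn2, Cldn3, Cldn5, Cldn11, F11r and Jam2, and all 9 were found among the 22337 genes of the tables. Tight junctions close the gap between neighbouring epithelial or endothelial cells. Claudins form the strands that set which ions and solutes pass, occludin is a further membrane protein of the strands, junctional adhesion molecules (JAMs) lie beside them, and the ZO-1 scaffold ties the strands to actin. In the brain and its coverings such junctions make the blood vessel wall, the choroid plexus epithelium and the arachnoid layer into barriers, and Cldn11 also seals the myelin sheath of oligodendrocytes.

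RNA-seq libraries were made by the Smart-seq2 method from 32 samples, each from 1 male mouse. The HPC was taken from 4 mice each of the WT, untreated 5xFAD and light-treated 5xFAD groups, and both the meninges and the mLECs from 4, 3 and 3 mice of these groups. 5xFAD mice carry mutated human amyloid precursor protein and presenilin 1 transgenes driven by mouse Thy1 regulatory sequence, which is active mainly in neurons, and WT mice were littermates without the transgenes. Mice were 6 months old, and light treatment was near-infrared light given through the shaved scalp of anaesthetized mice for 10 min, 3 times per week for 4 weeks. Untreated mice were anaesthetized and shaved likewise and kept under room light. mLECs were sorted from meninges as live cells without CD45 and with CD31 and podoplanin (PDPN).

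Total counts ran from 6601143 to 24207326 per library. Libraries differed in cell content. In HPC, the summed FPKM (fragments scaled to transcript length and library size) of 12 choroid plexus markers was between 2859 and 3251 in 3 libraries (WT replicate 2 and untreated 5xFAD replicates 1 and 2) and between 44.9 and 716 in the other 9, and in meninges it was between 16043 and 50239. Among the mLEC libraries Pecam1, which encodes the sorted CD31, ranged from 189 to 398 FPKM, and Ptprc, which encodes CD45, was at 0 in all 10. The lymphatic genes were less uniform: Pdpn was at 0 in 4 libraries and Prox1, the defining transcription factor, in 3, and 8 lymphatic markers summed to 57.1 in WT replicate 2 and 144 in WT replicate 4 against at least 1197 in the other 8. In those 8 most of the sum was Ccl21a, which was 3.54 and 0 FPKM in WT replicates 2 and 4. Lyve1 and Pdpn were also at 0 in both. Other lymphatic markers did not follow this in full: Prox1 was at 0 in WT replicate 2 but highest in WT replicate 4, at 5.71. Flt4 was 34.37 and 30.30 in these 2 libraries, within its range of 3.83 to 81.61. Markers of other cells were present in part. The leukocyte marker Cd74 ranged from 0.16 to 1507 FPKM, although 5 of 8 leukocyte markers were at 0 throughout, and the fibroblast marker Dcn from 0.30 to 612. The mLEC libraries thus held endothelial RNA throughout but lymphatic RNA and markers of other cells unevenly. The members whose values turned on the named libraries are also given without them. HPC and meninges share a table and the mLECs have their own, so levels are set side by side across these tables but not tested.

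By the GENCODE vM21 annotation of GRCm38, F11r, which encodes junctional adhesion molecule A, lies on chr1:171437535-171464603 with 9 exons, Ocln on chr13:100496507-100552718 with 10 exons and Cldn3 on chr5:134986214-134987472 with 1 exon. The values below turn mostly on these 3 protein-coding genes, so their promoters, the 250 bases before the RefSeq start, are shown. Capitals mark the E-box CACCTG on either strand, to which repressors of junction genes of the Snail and Zeb families are known to bind, and the GC box GGGCGG on either strand, known as an Sp1 element. Sequences are from RefSeq on GRCm38.p6 and run 5′ to 3′ on the strand of the gene.
F11r, chr1:171437311-171437560, plus strand: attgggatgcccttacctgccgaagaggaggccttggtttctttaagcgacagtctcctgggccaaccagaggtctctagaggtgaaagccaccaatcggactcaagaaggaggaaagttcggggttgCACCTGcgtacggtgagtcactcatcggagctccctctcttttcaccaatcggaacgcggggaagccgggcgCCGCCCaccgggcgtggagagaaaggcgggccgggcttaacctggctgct
Ocln, chr13:100552719-100552968, minus strand: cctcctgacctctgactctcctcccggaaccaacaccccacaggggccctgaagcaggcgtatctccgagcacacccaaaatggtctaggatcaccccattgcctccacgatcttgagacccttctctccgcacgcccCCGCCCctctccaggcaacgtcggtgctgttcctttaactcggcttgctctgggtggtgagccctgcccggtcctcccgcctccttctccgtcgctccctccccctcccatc
Cldn3, chr5:134985964-134986213, plus strand: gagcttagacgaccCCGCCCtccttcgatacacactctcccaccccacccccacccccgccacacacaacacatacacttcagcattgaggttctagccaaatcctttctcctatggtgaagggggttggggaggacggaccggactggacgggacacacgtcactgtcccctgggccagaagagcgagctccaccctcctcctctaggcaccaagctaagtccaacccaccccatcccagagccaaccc
The F11r window held 1 E-box, at base 129, and 1 GC box, at base 201, counted from the 5′ end. The Ocln window held a GC box at base 139 and the Cldn3 window a GC box at base 15. A promoter was found for 8 of the 9 members, in 9 windows since Ocln has a second start, and an E-box lay in 2 of the windows and a GC box in 7. The other E-box window was the second one of Ocln, chr13:100552499-100552748, with 2 E-boxes and a GC box. It lies mostly within the longer transcript and is not printed. Of 32851 promoter windows of this length, 17.2% held the E-box and 32.7% the GC box, so these matches are a description only.

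In WT HPC the order by mean FPKM (± SD, n = 4) was Cldn11 with 113 ± 28.2, Cldn5, the main claudin of brain endothelium, with 24.8 ± 3.41, Jam2 with 8.42 ± 0.821, Tjp1, which encodes ZO-1, with 7.25 ± 1.17, Ocln with 4.19 ± 1.25 and F11r with 3.82 ± 0.995. Cldn2, Cldn1 and Cldn3 lay lowest with 1.70 ± 2.30, 0.912 ± 0.590 and 0.150 ± 0.107. Neighbours in this order whose libraries overlapped were Jam2 and Tjp1, Ocln and F11r, F11r and Cldn2, and Cldn2 and Cldn1.

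In WT meninges Cldn11 again stood first with 150 ± 44.2 FPKM (n = 4), followed by Cldn5 with 91.5 ± 47.0, F11r with 25.0 ± 5.54, Cldn1 with 18.8 ± 4.82, Jam2 with 15.7 ± 6.80, Cldn2 with 15.3 ± 4.50 and Cldn3 with 14.3 ± 1.47. Tjp1 and Ocln were lowest with 8.62 ± 3.65 and 4.18 ± 1.62. The only neighbours in this order without overlap were Cldn5 and F11r, and Tjp1 and Ocln. In bulk tissue such as this, fewer cells of a type and less RNA per cell cannot be told apart.

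Between these 2 tissues of WT mice, 5 of the 9 members passed the test (edgeR quasi-likelihood test, adjusted p below 0.05 by the Benjamini-Hochberg method over 15132 genes), all higher in meninges, against a background of 73% of all genes tested. Cldn3, a sealing claudin of epithelia, had the largest difference of the 9, 6.48 (SE 0.47) on the log2 scale with an edgeR adjusted p of 2.73e-10, although it passed the filter on low values through the meninges libraries alone. Cldn1, another sealing claudin, was 19.6-fold higher in meninges and Cldn2, which forms a channel for cations and water, 9.23-fold higher. The Cldn2 value hung on WT replicate 2 of the HPC: its log2 difference of 3.21 (SE 0.80) was 5.10 without the HPC libraries rich in choroid plexus markers, and that of Cldn1 went from 4.29 to 4.75 and that of Cldn3 to 6.97. F11r was 6.20-fold and Cldn5 3.52-fold higher. The median log2 difference was 1.82 over the members and 0.12 over all genes tested. Ocln (log2 difference -0.15, SE 0.29), Tjp1 (0.32, SE 0.18), Cldn11 (0.34, SE 0.33) and Jam2 (0.40, SE 0.21) did not pass. Jam2 passed on the FPKM scale, with a limma log2 difference of 0.74 and an adjusted p of 0.00383 after log2(FPKM + 1).

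Each tissue had its own claudin make-up. Over all 31 genes with a claudin symbol, Cldn11 gave a median of 49.8% of the summed claudin FPKM in HPC libraries and 48.0% in meninges libraries, and Cldn5 12.9% and 19.7%. In the 10 mLEC libraries Cldn5 gave between 85.2% and 99.9%. Cldn1, Cldn2 and Cldn3 each stayed at or below 2.57% in HPC and were at 0 in mLECs, whereas in meninges Cldn1 gave 2.49% to 9.77%, Cldn2 3.43% to 15.2% and Cldn3 1.63% to 5.79%.

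**Figure D1:**
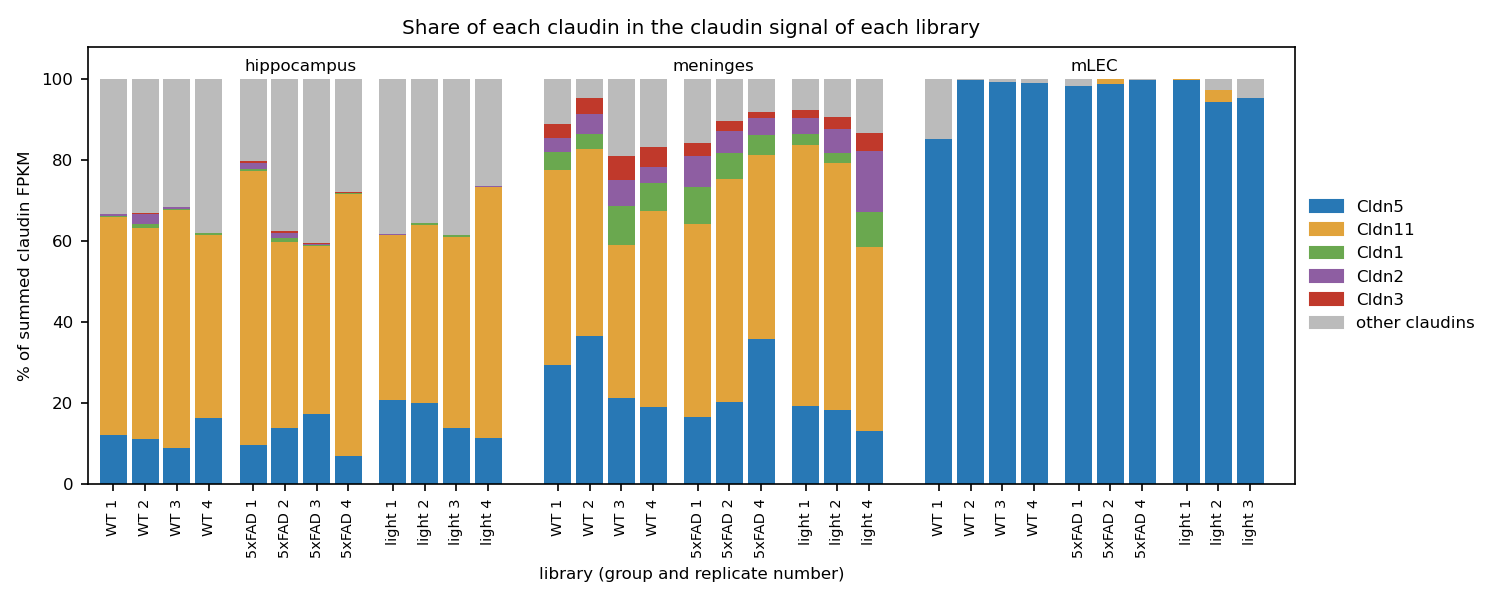
Stacked bars give the share (%) of Cldn5, Cldn11, Cldn1, Cldn2, Cldn3 and the other claudins in the summed claudin FPKM of each of the 32 libraries, 1 bar per library, by tissue and group. Cldn5 fills at least 85.2% of every mLEC bar, whereas Cldn11 is the widest band in HPC and meninges.

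F11r was the only member that passed the test within a tissue among those that passed the filter on low values. In HPC its FPKM was 3.75, 4.86, 4.16 and 2.49 in the 4 WT mice, 11.19, 10.78, 9.82 and 12.14 in the 4 untreated 5xFAD mice, and 8.13, 6.56, 10.68 and 10.69 in the 4 light-treated 5xFAD mice. Every 5xFAD library, treated or not, lay above every WT library, while the treated and untreated groups overlapped; between light-treated 5xFAD and WT mice 14.9% of genes did not overlap. F11r rose 2.91-fold in untreated 5xFAD mice against WT mice (log2 fold change 1.54, SE 0.21, edgeR adjusted p = 0.000324), and it was also 2.39-fold higher in light-treated 5xFAD than in WT mice (1.26, SE 0.21, edgeR adjusted p = 0.00243). These comparisons share their WT mice.

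Light-treated and untreated 5xFAD mice did not differ by the test in hippocampal F11r (log2 difference -0.28, 95% interval -0.71 to 0.15, edgeR adjusted p = 0.465). The interval leaves room for a fall of up to 0.71 on the log2 scale. F11r was 1 of 8 members tested in HPC and the only one to pass against WT, in either comparison, against 8.54% of 12981 genes for untreated 5xFAD versus WT mice and 3.59% for light-treated 5xFAD versus WT mice. No member passed between light-treated and untreated 5xFAD mice, where 0.455% of genes did. At an unadjusted p below 0.05 were 2382 of the 12981 genes, with 2 of the 8 members, Cldn1 and Cldn2, and DESeq2 called 641 genes, with 1 member, Cldn1. Cldn1 and Cldn2 passed the filter on low values through the 3 libraries rich in choroid plexus markers alone. Over the 8 members the median log2 difference was 0.12 for untreated 5xFAD versus WT mice, -0.03 for light-treated 5xFAD versus WT mice and -0.18 for light-treated versus untreated 5xFAD mice, against 0.01, -0.00 and -0.02 over all genes.

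Junctional adhesion molecule A is also known on leukocytes and platelets, and leukocyte markers moved with F11r in HPC. The summed FPKM of 8 leukocyte markers, all of which were detected, was 93.1 to 113 in WT, 605 to 968 in untreated 5xFAD and 347 to 807 in light-treated 5xFAD libraries, again without overlap between WT and 5xFAD mice. Among them was Tyrobp, an adaptor of microglial receptors, with 80.2 ± 8.21 FPKM in WT, 568 ± 147 in untreated and 461 ± 187 in light-treated 5xFAD mice (n = 4 each), and Ptprc was 0.768 ± 0.209, 3.51 ± 0.562 and 2.86 ± 0.412. The gene whose log2(FPKM + 1) followed F11r most closely over the 12 HPC libraries was Fcgr3, an Fc receptor of myeloid cells, with a Pearson r of 0.984 and a Spearman rho of 0.993, and r was 0.989 without the 2 libraries farthest from the median. Next came Vkorc1 with r of 0.981 and Bcl2a1b with 0.973. These correlations are descriptions across all 3 groups, which differ in many genes. The part of leukocytes in the F11r difference was not tested.

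In meninges the F11r groups were mixed. Its FPKM was 16.96, 28.47, 28.85 and 25.71 in WT, 13.46, 23.18 and 31.27 in untreated 5xFAD and 23.68, 24.66 and 27.41 in light-treated 5xFAD mice, so all groups overlapped. The log2 difference between untreated 5xFAD and WT mice was -0.13 (SE 0.29). The difference between the tissues in the effect of genotype itself passed the test, at -1.66 (SE 0.36) on the log2 scale with an edgeR adjusted p of 0.0172, but was -1.48 with an adjusted p of 0.0501 without the HPC sample of WT replicate 4, -1.38 (0.0562) without the meninges sample of untreated 5xFAD replicate 1 and -1.74 (0.0728) without the 3 HPC libraries rich in choroid plexus markers. Without those 3 libraries F11r still passed within HPC, with 1.65 for untreated 5xFAD versus WT mice (edgeR adjusted p = 0.00738) and 1.38 for light-treated 5xFAD versus WT mice (0.00941).

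**Figure D2:**
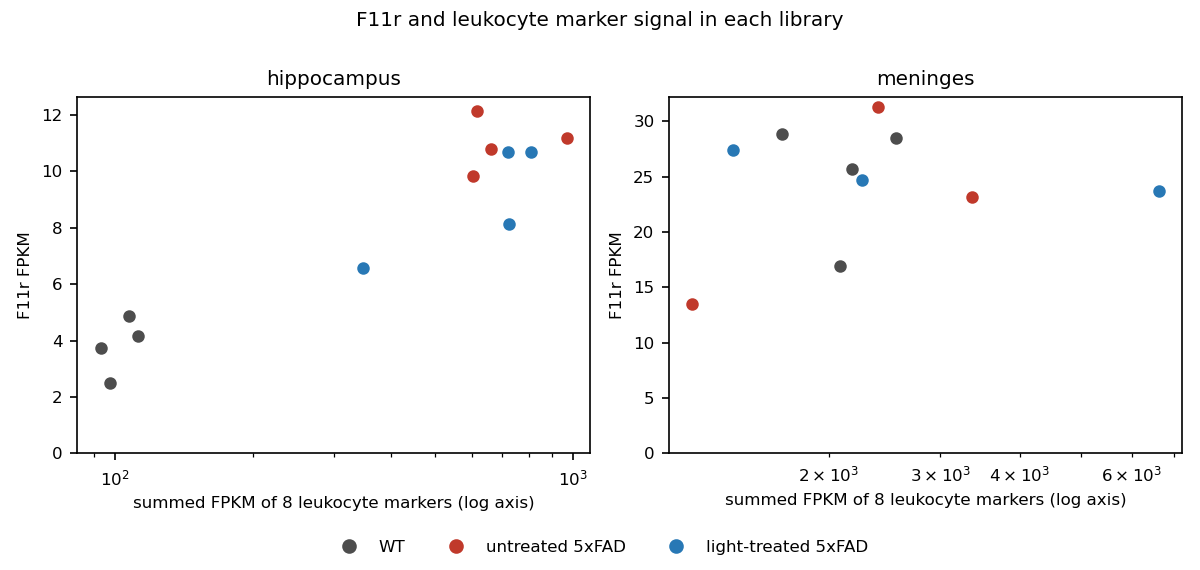
Each point is 1 library, with the summed FPKM of 8 leukocyte markers on a log x axis and F11r FPKM on the y axis, for HPC (left) and meninges (right), coloured by group. In HPC the 4 WT libraries lie at the lower left, below 5 FPKM, and the 8 5xFAD libraries at the upper right, whereas in meninges the groups are mixed.

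Jam2 encodes a junctional adhesion molecule of endothelium. In HPC its FPKM was 9.56, 8.35, 8.17 and 7.61 in WT, 10.07, 9.77, 12.52 and 9.95 in untreated 5xFAD and 6.99, 10.50, 9.79 and 10.03 in light-treated 5xFAD mice. By FPKM, untreated 5xFAD and WT mice did not overlap, as was so for 14.5% of the genes in that comparison and for 2 of the 8 members tested. By counts, which carry no correction for transcript length, Jam2 differed by 0.08 (SE 0.13, edgeR adjusted p = 0.741), and limma on log2(FPKM + 0.1) gave 0.32 with an adjusted p of 0.189. In meninges Jam2 ranged from 9.16 to 23.81 FPKM over the 10 libraries and passed in no comparison.

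Cldn1 and Cldn2, both low in HPC, moved with the choroid plexus markers. Cldn2 reached 5.10 FPKM in WT replicate 2 and 3.32 and 2.52 in untreated 5xFAD replicates 1 and 2, the 3 libraries rich in these markers, and was between 0.08 and 0.90 in the other 9. Cldn1 was 1.79, 1.51 and 2.04 in the same 3 libraries and between 0.23 and 0.72 in the others. These 3 alone reached 1 FPKM in either gene, so both passed the filter on low values only through the libraries where they were high. Both genes are known from choroid plexus epithelium. The transcripts that followed Cldn2 most closely over the 12 libraries were Kcne2 (Pearson r 0.965, Spearman rho 0.900), the choroid plexus water channel Aqp1 (0.964 and 0.851) and Ace (0.963 and 0.851). Those that followed Cldn1 were Ace (0.954 and 0.874), Kcne2 (0.936 and 0.734) and Trpv4 (0.931 and 0.609), with lower rank correlations.

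None of the light-treated libraries was rich in these markers. Light-treated HPC was also lower than untreated 5xFAD HPC, without overlap, in the sums of 10 fibroblast markers of the meninges (20.3 to 36.4 against 48.9 to 130 FPKM) and of 8 mural cell markers (18.5 to 22.9 against 25.4 to 33.5). Cldn1 was 0.23, 0.53, 0.51 and 0.44 FPKM in light-treated against 1.51, 2.04, 0.62 and 0.72 in untreated 5xFAD mice, without overlap, as for 7.63% of genes. The log2 difference was -1.53 (SE 0.48, edgeR adjusted p = 0.137), it passed with DESeq2 (adjusted p = 0.0408), and it was -0.63 with an edgeR adjusted p of 0.441 without the 3 libraries. Cldn2 was 0.08, 0.30, 0.20 and 0.34 in light-treated against 3.32, 2.52, 0.69 and 0.18 in untreated 5xFAD mice, with overlap, and its log2 difference of -2.83 (SE 1.11, edgeR adjusted p = 0.200) was -0.91 with an adjusted p of 0.647 without the 3 libraries. The part of fibroblasts and mural cells in these differences was not tested. Against WT mice, light-treated 5xFAD mice differed by -1.06 (edgeR adjusted p = 0.288) in Cldn1 and -2.78 (0.225) in Cldn2, and by -0.52 (0.511) and -0.83 (0.666) without the 3 libraries.

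Cldn3 lay below the filter in HPC, with at least 1 FPKM in 1 of 12 libraries, and had no test there with the filter. It was 0.10, 0.31, 0.11 and 0.08 FPKM in WT (2 to 7 counts), 1.54, 0.88, 0.44 and 0.39 in untreated 5xFAD (8 to 40 counts) and 0, 0.09, 0.09 and 0.05 in light-treated 5xFAD mice (0 to 2 counts). All 4 untreated 5xFAD libraries stood above all others, at a level of few reads, and the highest of them were the 2 rich in choroid plexus markers. Tested without the filter, Cldn3 differed by -3.75 on the log2 scale between light-treated and untreated 5xFAD mice (SE 0.79, edgeR adjusted p = 0.0447) and by 2.45 between untreated 5xFAD and WT mice (SE 0.70, edgeR adjusted p = 0.0489). Without the 3 libraries rich in choroid plexus markers these were -2.71 (adjusted p = 0.255) and 2.01 (0.409). Sums of 8 arachnoid barrier markers were 756 to 2690 FPKM in untreated 5xFAD, 347 to 831 in WT and 494 to 766 in light-treated 5xFAD HPC, and those of 8 epithelial and keratinocyte markers were 8.75 to 13.4 in untreated 5xFAD, 4.60 to 15.8 in WT and 6.95 to 7.95 in light-treated 5xFAD HPC. Cldn3 overlaps the antisense gene Wbscr25 and the protocol does not mark strand, so reads of the pair cannot be told apart.

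**Figure D3:**
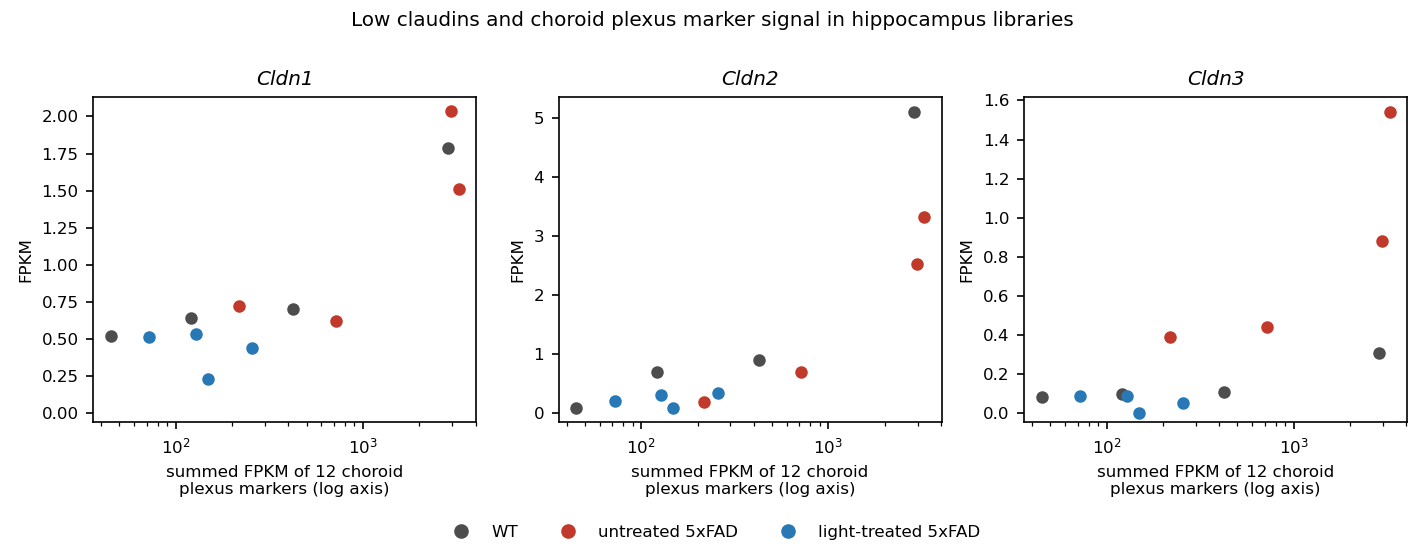
Each point is 1 of 12 HPC libraries, with the summed FPKM of 12 choroid plexus markers on a log x axis and the FPKM of Cldn1, Cldn2 or Cldn3 on the y axis, coloured by group. For Cldn1 and Cldn2 the 3 libraries above 2859 on the x axis hold the 3 highest values, whereas for Cldn3 all 4 untreated 5xFAD points lie above the WT and light-treated points.

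In meninges the untreated 5xFAD mice held the lowest mean of Cldn3. Its FPKM was 13.55, 15.66, 15.27 and 12.54 in WT, 6.19, 7.83 and 6.86 in untreated 5xFAD and 7.70, 11.91 and 11.50 in light-treated 5xFAD mice. Untreated 5xFAD mice lay below all WT mice, as did light-treated 5xFAD mice, and light-treated mice overlapped with untreated ones. The log2 difference between untreated 5xFAD and WT mice was -1.02 (SE 0.25) with an unadjusted edgeR p of 0.0012, but the adjusted p was 0.987. Cldn3 was the only member without overlap between these groups, as were 4.85% of all genes, and again the only one between light-treated 5xFAD and WT mice (12.3% of genes), where it differed by -0.46 (SE 0.24, edgeR adjusted p = 0.362). The light-treated minus untreated difference was 0.56 (SE 0.26, edgeR adjusted p = 0.392).

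The sum of the arachnoid barrier markers was also lower in the meninges of both 5xFAD groups. Cdh1, a member of this list, was at most 13.01 FPKM in meninges, so the sum rests on more abundant members. It does not show that each marker was lower. The summed FPKM of 8 arachnoid barrier markers was 14661 to 20401 in WT against 7012 to 13965 in untreated and 7747 to 13946 in light-treated 5xFAD mice, and that of 8 epithelial and keratinocyte markers 200 to 218 in WT, 149 to 195 in untreated and 193 to 243 in light-treated 5xFAD mice. Choroid plexus markers overlapped, at 16043 to 42423 in WT and 26474 to 33957 in untreated 5xFAD mice. The genes closest to Cldn3 over the 10 meninges libraries were Caln1 (Pearson r 0.961, Spearman rho 0.903) and the genes of cilia Cfap58 (0.952 and 0.927) and Vwa3b (0.922 and 0.939). The part of these cells in the Cldn3 difference was not tested.

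The difference in Cldn3 between tissues passed the test for both effects. For light against no light in 5xFAD mice, meninges minus HPC was 4.28 on the log2 scale (SE 0.70, edgeR adjusted p = 0.0118), and for untreated 5xFAD against WT mice it was -3.51 (SE 0.61, edgeR adjusted p = 0.00304). Both passed without the 3 HPC libraries rich in choroid plexus markers, at 3.27 (adjusted p = 0.0229) and -3.03 (0.0167). With limma on log2(FPKM + 1), which gives little weight to the low HPC values, the first was 1.23 with an adjusted p of 0.0508. Cldn3 was the only member to pass for light, where 1.05% of 15132 genes passed, and Cldn3 and F11r were the 2 that passed for genotype, where 1.74% did. Cldn3 entered this fit through the meninges libraries alone, where it is high, and the HPC side of its values rests on 0 to 40 counts.

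Ocln, which encodes occludin, had its highest mean among the meninges groups in light-treated mice. Ocln was 5.37, 5.71, 3.23 and 2.40 FPKM in WT, 1.89, 4.16 and 4.57 in untreated 5xFAD and 5.51, 12.03 and 12.68 in light-treated 5xFAD mice. Light-treated mice lay above all untreated 5xFAD mice, as was so for 20.8% of genes in either direction, but replicate 1 of the light-treated mice fell below WT replicate 2. Against WT mice, Ocln in light-treated 5xFAD mice differed by 1.37 (SE 0.30, edgeR adjusted p = 0.107), and without 1 of the replicates in turn it lay between 1.09 and 1.58. Against untreated 5xFAD mice the difference was 1.41 (SE 0.33, edgeR adjusted p = 0.286). Neither passed by edgeR, while DESeq2 called both (adjusted p = 0.00887 against WT and 0.0291 against untreated 5xFAD mice). Untreated 5xFAD and WT mice differed by -0.05 (SE 0.31).

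None of the 11 marker lists separated the meninges of light-treated from those of untreated 5xFAD mice without overlap. The leukocyte sum was highest in replicate 1 of the light-treated mice, at 6618, which had the lowest Ocln of that group, and arachnoid barrier markers were at 13104, 13946 and 7747 in the 3 light-treated mice against 5.51, 12.03 and 12.68 FPKM of Ocln. The sum of 10 pineal markers ran in the order of Ocln there, at 1161, 2350 and 2385. In untreated 5xFAD mice it ran in the reverse order, at 1969, 1930 and 424 against 1.89, 4.16 and 4.57 FPKM of Ocln. It was 1385 to 1875 in WT mice. Epithelial and keratinocyte markers were at 193, 243 and 207 in the light-treated mice. The part of these cells in the Ocln values was not tested. In HPC, Ocln was 4.95, 5.49, 2.80 and 3.51 in WT, 3.51, 3.85, 1.64 and 3.49 in untreated 5xFAD and 3.76, 7.53, 3.29 and 3.25 in light-treated 5xFAD mice, with overlap between all groups. The light-treated minus untreated difference there was 0.36 (SE 0.27, edgeR adjusted p = 0.501). The effect of light in meninges minus that in HPC was 1.02 (SE 0.45, edgeR adjusted p = 0.215), which did not pass.

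In meninges as a whole, no member of 9 passed in any of the 3 comparisons, and few genes did: 0.014% for light-treated versus untreated 5xFAD mice, 0% for untreated 5xFAD versus WT mice and 0.014% for light-treated 5xFAD versus WT mice by edgeR. At an unadjusted p below 0.05 there were 1822, 574 and 2355 genes, with 1, 1 and 2 members, and DESeq2 called 79, 0 and 437 genes, with 1, 0 and 1 member. The median log2 difference over the 9 members was 0.34, 0.05 and 0.23 in these comparisons, against 0.04, -0.00 and 0.01 over all genes. The 2 members at an unadjusted p below 0.05 between light-treated 5xFAD and WT mice were Ocln and Cldn2. Cldn2 was 13.31, 20.60, 17.16 and 10.28 in WT and 14.15, 23.32 and 38.94 in light-treated 5xFAD mice, which overlapped, and differed by 0.76 (SE 0.32, edgeR adjusted p = 0.273). Cldn1 was 14.79 to 25.80 in WT, 18.02 to 20.73 in untreated and 9.89, 10.03 and 22.21 in light-treated 5xFAD mice, the last of which kept the groups overlapping.

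Cldn5, Cldn11 and Tjp1 passed in no comparison within a tissue. Cldn5 in HPC was 25.63, 21.93, 22.24 and 29.20 in WT, 23.68, 30.20, 39.61 and 16.53 in untreated 5xFAD and 34.81, 35.80, 26.55 and 33.54 in light-treated 5xFAD mice. It differed by 0.24 (95% interval -0.21 to 0.70) with light in 5xFAD mice and by 0.40 (-0.05 to 0.86) between light-treated 5xFAD and WT mice. In meninges Cldn5 varied from 33.29 to 150.98 FPKM over the 10 libraries, both of them untreated 5xFAD mice, and its largest standard error in the 3 comparisons was 0.53.

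Cldn11 was 81.85 to 149.30 in WT, 94.87 to 165.94 in untreated and 68.66 to 181.00 in light-treated 5xFAD HPC, and 95.34 to 245.53 FPKM over all meninges libraries. Its closest gene over the HPC libraries was Mag, the myelin-associated glycoprotein (Pearson r 0.942, Spearman rho 0.937), followed by Cers2 (0.935 and 0.902), an enzyme that makes the long-chain ceramides of myelin, and Trf (0.916 and 0.902), the transferrin of oligodendrocytes. In meninges myelin and oligodendrocyte markers summed to between 111 and 364 against at least 2583 in HPC, while Cldn11 was at a similar level in both. Its closest genes in meninges were Tap2, Plscr3 and Bace2 (Pearson r 0.975, 0.971 and 0.967).

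In HPC and meninges Tjp1 kept to a narrow range of levels. It ranged from 5.61 to 10.76 FPKM over the 12 HPC libraries and from 6.05 to 13.88 over the 10 meninges libraries, a spread of 1.92 and 2.29 times. Differences between groups ran from -0.05 to 0.09 on the log2 scale in HPC, each with a standard error of 0.17, and from -0.18 to 0.41 in meninges, with standard errors of 0.21 to 0.23. The groups overlapped in every comparison. Parts of Tjp1 overlap the gene models Gm44794, Gm44795 and Gm44792, whose reads may be shared with it.

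**Figure D4:**
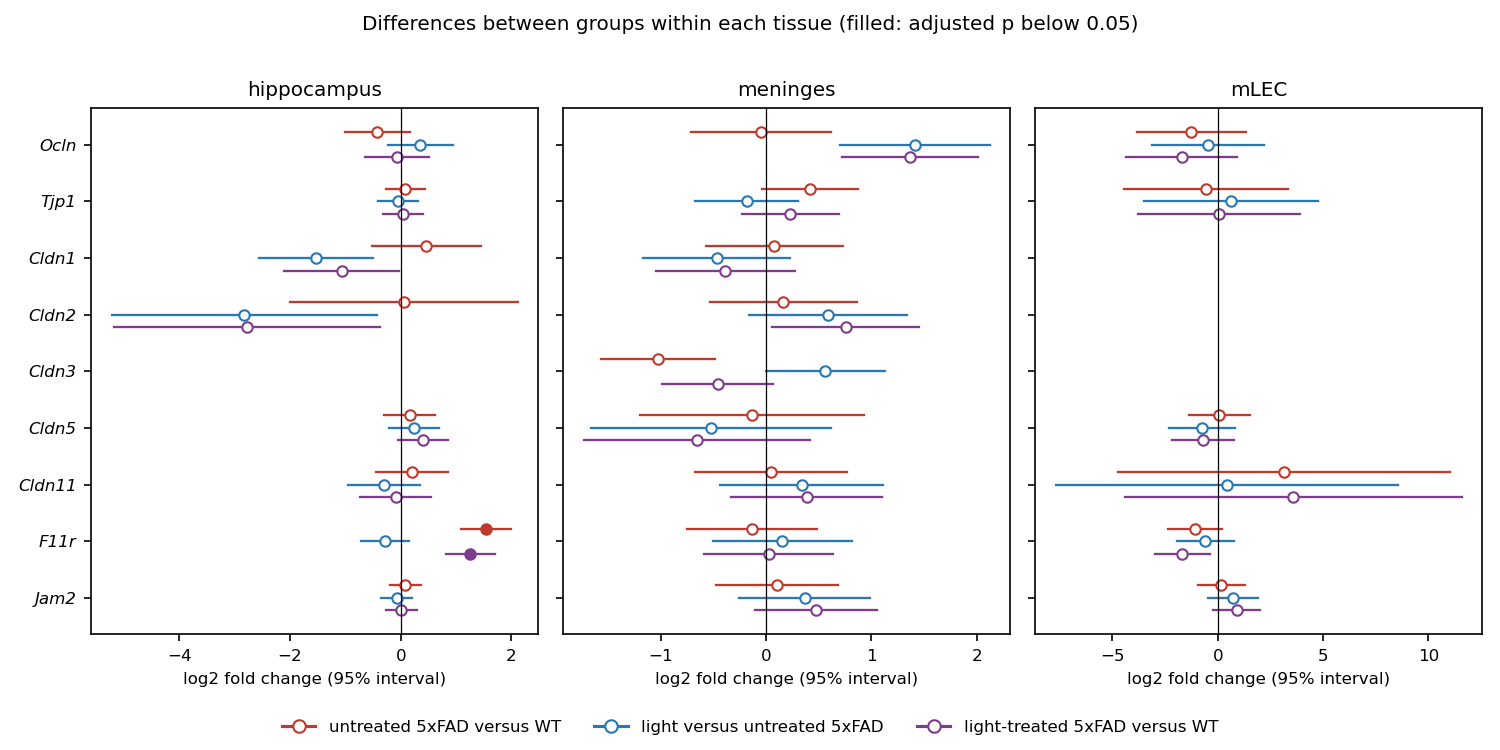
Points are log2 fold changes and lines 95% intervals from the edgeR fit for each member and comparison in HPC, meninges and mLECs, each panel with its own x axis. Filled points mark an adjusted p below 0.05, which only F11r reached, in HPC against WT mice for untreated (1.54) and light-treated (1.26) 5xFAD mice.

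In mLECs Cldn5, F11r, Jam2 and Ocln were the abundant members. Cldn5 was 159.42, 2047.73, 1362.99 and 503.13 FPKM in WT, 604.29, 1899.66 and 1077.83 in untreated 5xFAD and 428.77, 768.86 and 849.65 in light-treated 5xFAD mice. Cldn1, Cldn2 and Cldn3, the epithelial claudins of the list, were at 0 in all 10 libraries, where 3 counts would correspond to between 0.124 and 0.211 CPM. Cldn11 was at 0 in 5 libraries and reached 21.96 in 1 untreated and 24.53 in 1 light-treated 5xFAD library.

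F11r in mLECs was 310.02, 121.18, 141.74 and 163.78 FPKM in WT, 137.70, 79.71 and 81.46 in untreated 5xFAD and 77.37, 78.60 and 33.81 in light-treated 5xFAD mice. All light-treated mice lay below all WT mice, and the highest light-treated value of 78.60 was just below the lowest untreated 5xFAD value of 79.71. The log2 difference between light-treated 5xFAD and WT mice was -1.68 (SE 0.61, edgeR adjusted p = 0.740). It was -1.76 with DESeq2, which called it (adjusted p = 0.0423). Without the 2 WT libraries poor in Ccl21a, which left WT replicates 1 and 3, it was -2.04 (edgeR adjusted p = 0.804). The share of all genes without overlap was 5.67% in this comparison, 10.1% between light-treated and untreated 5xFAD mice and 6.23% between untreated 5xFAD and WT mice, where no member was without overlap.

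Jam2 in mLECs was 200.17, 79.92, 43.11 and 157.32 in WT, 75.61, 129.28 and 144.85 in untreated 5xFAD and 160.53, 226.88 and 205.84 in light-treated 5xFAD mice. Light-treated mice lay above untreated 5xFAD mice and overlapped with WT mice, and the log2 difference was 0.73 (SE 0.55, edgeR adjusted p = 1). Ocln spanned 1.24 to 132.39 FPKM, with 129.10, 132.39, 14.40 and 62.07 in WT, 51.80, 33.11 and 30.38 in untreated 5xFAD and 1.24, 55.42 and 8.84 in light-treated 5xFAD mice. It overlapped between all groups. Tjp1 was at 0.01 and 0.10 in WT replicates 1 and 2, with 1 and 13 counts, against 6.07 to 33.03 in the other 8 libraries. Without the 2 WT libraries poor in Ccl21a, replicates 2 and 4, the log2 difference between light-treated 5xFAD and WT mice went from 0.07 to 0.99 in Tjp1 and from -0.69 to -0.18 in Cldn5. That between untreated 5xFAD and WT mice went from -0.56 to 0.37 and from 0.06 to 0.56. None of these passed. The WT group of this run held replicates 1 and 3 alone. For Tjp1 it lost the highest value, 33.03 in replicate 4, and kept 0.01 and 11.53, so the Tjp1 shift rests on these.

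Of the 6 members tested in mLECs none passed in any comparison, as for nearly all genes (0% of 8188 genes for light-treated versus untreated 5xFAD mice, 0% for untreated 5xFAD versus WT mice and 0.0122% for light-treated 5xFAD versus WT mice by edgeR). At an unadjusted p below 0.05 there were 328, 312 and 550 genes, among them 1 member, F11r, in the last comparison, and DESeq2 called 357, 185 and 464 genes, with 0, 0 and 1 member. The median over the 6 members was -0.02, -0.25 and -0.31, against 0.03, -0.04 and -0.05 over all genes. The standard errors of the members ran from 0.51 to 3.77 on the log2 scale, and the 95% interval of the difference between light-treated and untreated 5xFAD mice ran from -3.14 to 2.21 for Ocln, from -3.50 to 4.75 for Tjp1 and from -7.70 to 8.54 for Cldn11. Over the members and the 3 comparisons of each tissue, 72 exact permutation tests on log2(FPKM + 1), two-sided, gave a smallest adjusted p of 0.229. Each could reach no less than 0.0286, or 0.1 with 3 mice against 3.

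**Figure D5:**
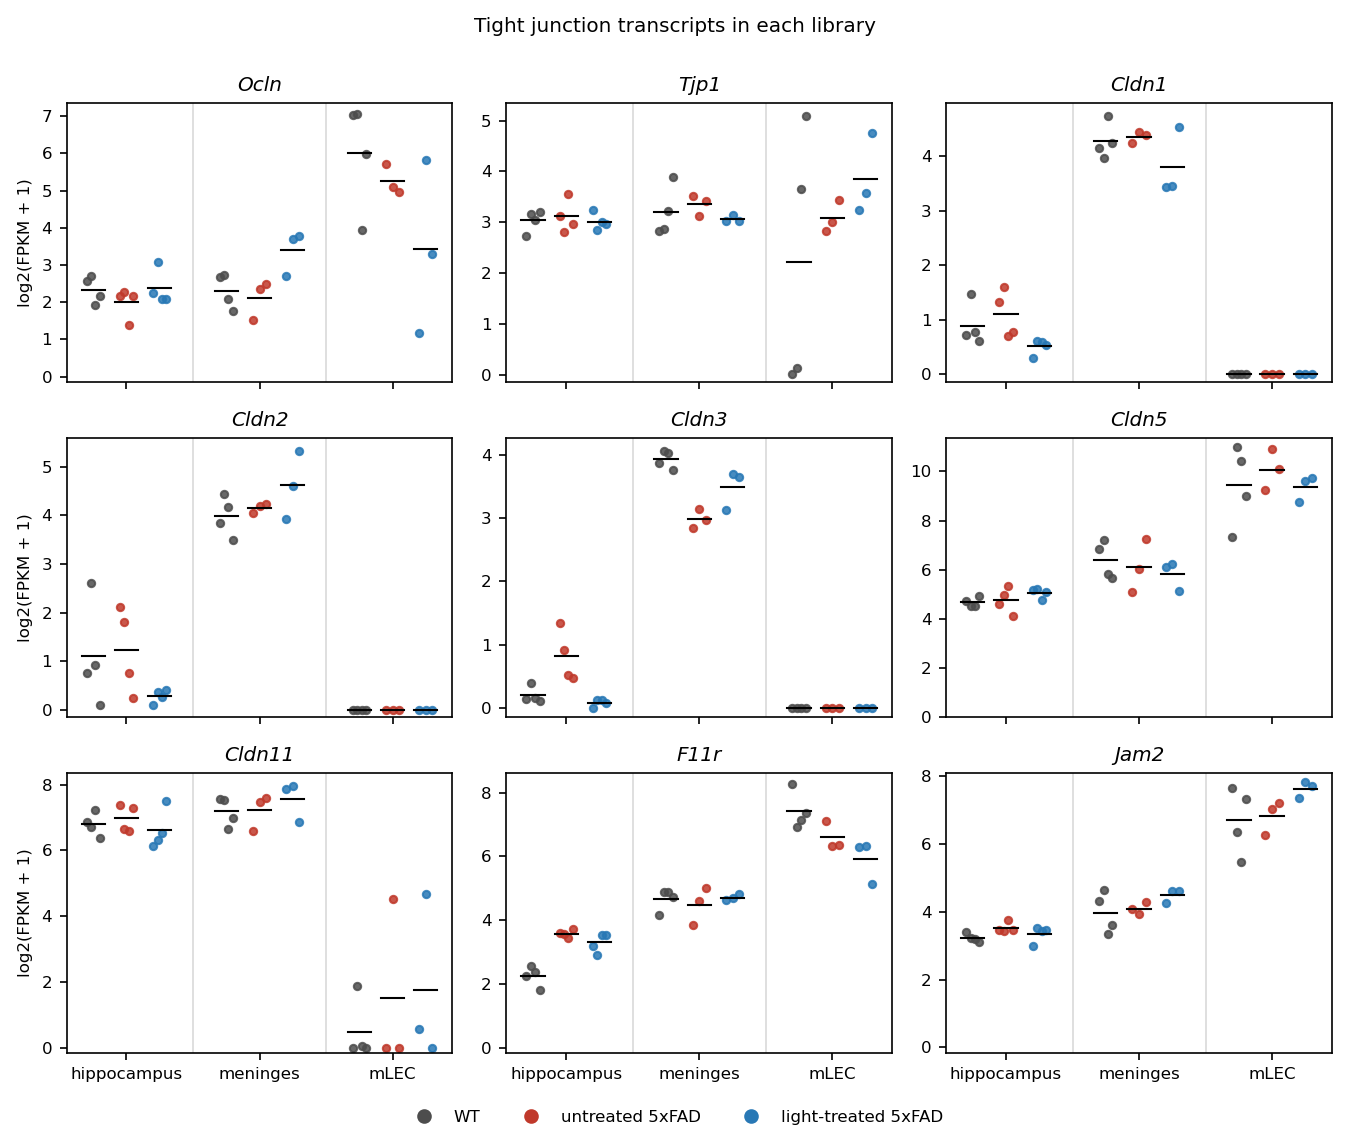
Each panel is 1 member, with log2(FPKM + 1) on the y axis and 1 point per library, grouped by tissue and coloured by group, and black lines mark the group means. F11r is higher in both 5xFAD groups than in WT mice in HPC, Cldn1, Cldn2 and Cldn3 are highest in meninges and at 0 in mLECs, and Cldn5 is highest in mLECs.

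Few of the other junction genes passed within a tissue. Of 17 other claudins, 10 other membrane proteins of tight junctions, 18 adaptors and polarity proteins and 11 adherens junction proteins, 35 were tested in HPC, and 1 of these passed: Ctnna1, which encodes alpha-catenin of adherens junctions, was higher in untreated 5xFAD than in WT mice by 0.43 (SE 0.12, edgeR adjusted p = 0.0342). None of the 45 tested in meninges and none of the 24 tested in mLECs passed. The smallest adjusted p for light in HPC was that of Cgn, the junction adaptor cingulin, at -1.06 (SE 0.24, edgeR adjusted p = 0.0660). The median log2 difference for light in HPC was 0.20 over the 3 other claudins tested, -0.42 over 6 membrane proteins, -0.08 over 17 adaptors and -0.02 over 9 adherens junction proteins, against -0.02 over all genes.

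Between WT meninges and WT HPC the other junction genes differed widely, as did most genes. Of 7 other claudins tested 3 were higher and 3 lower in meninges, of 9 other membrane proteins 8 were higher, of 18 adaptors 11 were higher and 3 lower, and of 11 adherens junction proteins 8 were higher and 1 lower. Cldn10, a claudin that forms ion channels, was lower in meninges with 4.50 FPKM against 55.1 in HPC (log2 difference -3.62, SE 0.41), while Cldn7 and Cldn9 were higher in meninges by 7.02 and 6.04. Cdh5, the cadherin of endothelium, and Cdh1, that of epithelium, were higher in meninges by 4.26 and 6.10. These 4 genes were below 1 FPKM in every HPC library and passed the filter on low values through the meninges alone. For light, Cdh1, at most 0.88 FPKM in HPC, was the 1 other junction gene that passed for a difference between the tissues (3.19, SE 0.77, edgeR adjusted p = 0.0479), against the 1.05% of all genes.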

How the data were processed

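Smart-seq2 libraries of 12 HPC, 10 meninges and 10 mLEC samples were read from 2 deposited tables joined by gene identifier. The expected counts and the FPKM values were made and deposited by the authors, in whose methods reads were filtered with fastp and quantified with RSEM, while the submitters' processing notes name mm10, Trimmomatic, HISAT2 and StringTie. Total counts were 13952825 to 23856476 in HPC, 6601143 to 14708202 in meninges and 14231415 to 24207326 in mLECs. Fewer reads, as in meninges, and the wide spread of the mLEC libraries limit precision.

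After rounding of the expected counts, the quasi-likelihood test of edgeR 4.0.16 (TMM scaling, R 4.3.3) was run over the 3 groups of a tissue. Genes were kept when 3 or more samples of the tissue reached 1 FPKM. HPC and meninges were fitted together for differences between tissues, with their samples treated as separate mice. Adjusted p-values are by Benjamini-Hochberg over all genes tested, with a threshold of 0.05. Exact two-sided permutation tests on log2(FPKM + 1) were run per member. Levels between genes are compared as FPKM. The scripts were tested on simulated data. Alternatives were DESeq2 1.42.0, limma 3.58.1 with pseudocounts of 1 and 0.1, other scaling, filters and samples, and a replicate block. Each sample is 1 mouse, and no pair of replicates agreed within sampling noise.

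All 9 members were named. The 3 genes most alike by Pearson correlation were sought for each member in HPC and in meninges. They are given for F11r, Cldn1, Cldn2 and Cldn11 in HPC and for Cldn3 and Cldn11 in meninges. The others are left out, among them Ino80d, Agap1 and Apba1 for Cldn5 in HPC. Other junction genes were named from those that passed or came nearest to it. The members and lists were chosen with earlier results of these data known. Promoters came from RefSeq on GRCm38.p6, and Jam2 had none.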

Additional observations from a re-analysis of the deposited data

Results flagged for a closer look

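In 7 of the 42 groups of 4 mice tested, 1 library stood apart from the other 3 in FPKM (its gap to the nearest was above Dixon's 95% critical value). Chance gives about 1 in 20 groups when values are independent and normally distributed. FPKM near 0 and genes of the same library need not meet this, so the count of 7 has no exact reference. WT replicate 2 in HPC was high in Cldn1 (1.79), Cldn2 (5.10) and Cldn3 (0.31), and it was also high in choroid plexus markers (2859 against 44.9 to 425 in the other WT mice). Ocln was low in untreated 5xFAD replicate 3 (1.64) and high in light-treated 5xFAD replicate 2 (7.53) of the HPC. Jam2 was high in untreated 5xFAD replicate 3 of the HPC (12.52), and Cldn11 in WT replicate 2 of the mLECs (2.70).

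The effect of light or genotype differed between meninges and HPC by the test of the difference in 3 cases (edgeR, log2 scale, meninges minus HPC). These were Cldn3 for light in 5xFAD mice (4.28), Cldn3 for untreated 5xFAD versus WT mice (-3.51) and F11r for untreated 5xFAD versus WT mice (-1.66). Cldn3 was below the filter on low values in HPC and was tested here through its meninges libraries.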

How the results depend on the processing

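Of 1644 values of 96 member results under alternatives, 1631 kept their direction, where called, and their side of the threshold, 4 lost a call, 9 gained one and none of the called ones reversed. F11r in HPC passed in 17 of 17 alternatives against WT, at 1.34 to 1.66 for untreated and 1.06 to 1.40 for light-treated 5xFAD mice. Numbers of members passing changed as follows, and the cause was not tested. For light-treated versus untreated 5xFAD mice in HPC, 1 member passed with no filter (Cldn3) and 1 with DESeq2 (Cldn1), against 0. For untreated 5xFAD versus WT mice in HPC, 2 passed with no filter, against 1. In meninges 1 member passed with DESeq2 (Ocln) in each comparison of light-treated mice, against 0, and in mLECs 1 (F11r) for light-treated 5xFAD versus WT mice. For the tissue difference in the effect of light, 0 passed with limma on log2(FPKM + 1), against 1. For that of genotype, 1 to 2 passed without 1 replicate and 1 without the 3 HPC libraries rich in choroid plexus markers, against 2. Between WT meninges and WT HPC, 7 passed with a mean FPKM of at least 5 (Tjp1 at 0.47 and Jam2 at 0.53 added) and 6 with either limma run or without WT replicate 4 of the meninges (Jam2 added), against 5. The runs without those 3 libraries, and without the 2 mLEC libraries poor in Ccl21a, were chosen after seeing the data. Cldn1 to Cldn3 in HPC and all mLEC results are limited by few reads or wide spread.

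Replicate numbers did not pair the samples of different groups within a tissue, since the correlations of same-numbered samples ran from -0.244 to 0.0929 in HPC, -0.316 to 0.256 in meninges and -0.0398 to 0.0139 in mLECs. Pairing across tissues was not checked. HPC and meninges samples may share mice, and the tests between tissues treated them as separate mice. With a replicate block, the number of members passing was 0, 1 and 1 in HPC (light-treated versus untreated, untreated versus WT and light-treated versus WT) and 0 in meninges and mLECs, as without it.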
